A study of Mus musculus with 18 samples.

Results

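Cycling mammary epithelial cells of the late mouse embryo were taken from a single library, the mammary rudiments of C57BL/6 embryos at embryonic day 18.5 (E18.5). A cell counted as cycling when it held 3 or more unique molecular identifiers (UMIs, each 1 captured RNA molecule) summed over Mki67, Top2a, Cenpf and Pclaf. The cells were thus chosen by measured levels of these genes, which are described here and not tested. A cell first had to have 500 or more detected genes, a mitochondrial share of UMIs under 20%, 2 or more UMIs of the epithelial adhesion gene Epcam, and fewer than 10 UMIs of the epidermal genes Krt1, Krt10 and Krtdap together. Of 6969 barcodes in the library, 6490 passed the limits on genes and mitochondrial share and 4937 were epithelial by these criteria. Of the epithelial cells, 2496 were cycling, 1049 held none of the 4 genes and 1392 held 1 or 2 UMIs of them. The whole series holds 149371 barcodes in 18 libraries.

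Per the study's methods, the rudiments were dissected with the help of fluorescence from an Lgr5-GFP knock-in allele, a reporter placed at the gene of a WNT pathway receptor. They were pooled from several female embryos into 1 suspension, depleted of blood and endothelial cells by sorting, sorted on CD24 and CD29, and captured with 10x Genomics 3' chemistry. All cells compared here, cycling or not, thus shared the strain, the reporter allele, the stage and the library. The other C57BL/6 libraries served for comparison, each also without a replicate: skin of the same embryos, whole gland epithelium at postnatal day 5 and before puberty at 2.5 weeks, terminal end buds and ducts of E-cadherin-GFP females at 5 weeks, and adult gland at 10 weeks.

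The cell cycle genes used here work in sequence. In S phase the genome is copied by the MCM helicase, the sliding clamp Pcna and enzymes that supply deoxynucleotides, with transcription driven largely by E2F factors. In G2 and mitosis the cyclin-dependent kinase Cdk1 with cyclins A and B, the Aurora and Polo kinases and the kinetochore proteins condense, align and part the chromosomes, and many of their genes are controlled through promoter elements called CHR and CCAAT boxes. Mki67 coats mitotic chromosomes, Top2a untangles DNA, Cenpf is a kinetochore protein, and Pclaf binds Pcna at replication forks. The embryonic rudiment is a small branching sprout of epithelium, whose basal and luminal lineages are not yet fully separate, and it later gives the contractile myoepithelium and the milk-secreting luminal cells.

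The promoters below show those elements in the genes that selected the cells, with Mcm6 as a replication gene and Acta2, smooth muscle actin, as a gene outside the cycle. Each line gives the 250 bases before the RefSeq start of the gene, 5′ to 3′ on the gene's strand, from build GRCm38.p6. Capitals mark a match on either strand. A CHR element was read as the letters TTTGAA, and its known variant as TTCGAA. The box named CCAAT was searched by those letters. An E2F site was read as TTTGGCGC, TTTCGCGC, TTTCCCGC or TTTGCCGC. The windows lie at chr7:135716380-135716629 for Mki67, chr11:99024190-99024439 for Top2a, chr1:189688087-189688336 for Cenpf, chr1:128359706-128359955 for Mcm6 and chr19:34255374-34255623 for Acta2, all on the minus strand, and at chr9:65890073-65890322 on the plus strand for Pclaf.
Mki67: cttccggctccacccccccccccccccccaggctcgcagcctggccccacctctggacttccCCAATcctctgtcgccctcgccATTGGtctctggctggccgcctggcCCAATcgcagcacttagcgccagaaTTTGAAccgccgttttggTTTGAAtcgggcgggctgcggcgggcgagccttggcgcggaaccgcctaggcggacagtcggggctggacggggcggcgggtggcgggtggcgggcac
Top2a: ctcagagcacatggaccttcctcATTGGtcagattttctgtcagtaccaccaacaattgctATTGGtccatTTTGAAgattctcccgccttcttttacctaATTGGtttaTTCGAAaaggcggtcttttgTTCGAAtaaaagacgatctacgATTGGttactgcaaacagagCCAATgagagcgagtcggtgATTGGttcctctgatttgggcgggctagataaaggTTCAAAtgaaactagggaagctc
Cenpf: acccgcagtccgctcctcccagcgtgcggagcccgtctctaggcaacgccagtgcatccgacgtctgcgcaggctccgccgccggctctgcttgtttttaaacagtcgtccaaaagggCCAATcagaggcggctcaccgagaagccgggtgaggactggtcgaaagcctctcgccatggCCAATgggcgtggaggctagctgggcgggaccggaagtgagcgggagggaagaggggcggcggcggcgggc
Pclaf: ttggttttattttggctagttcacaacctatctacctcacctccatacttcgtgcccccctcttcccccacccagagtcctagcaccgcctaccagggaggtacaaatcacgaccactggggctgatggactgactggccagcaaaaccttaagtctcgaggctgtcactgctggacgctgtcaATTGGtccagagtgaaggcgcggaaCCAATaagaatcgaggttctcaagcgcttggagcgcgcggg
Mcm6: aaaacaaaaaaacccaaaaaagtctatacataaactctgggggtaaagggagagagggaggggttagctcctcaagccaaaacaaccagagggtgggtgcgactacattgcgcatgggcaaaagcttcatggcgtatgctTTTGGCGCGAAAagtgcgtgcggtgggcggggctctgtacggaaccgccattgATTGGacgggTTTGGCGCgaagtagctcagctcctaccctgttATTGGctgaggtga
Acta2: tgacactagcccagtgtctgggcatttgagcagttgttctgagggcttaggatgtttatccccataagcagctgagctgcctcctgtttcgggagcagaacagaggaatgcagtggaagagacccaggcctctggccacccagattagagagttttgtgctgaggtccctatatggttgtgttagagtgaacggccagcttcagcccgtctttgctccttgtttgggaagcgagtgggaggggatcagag

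The Mki67 window held 2 CHR matches and 3 CCAAT matches, and the Top2a window 4 and 6. Cenpf and Pclaf each held 2 CCAAT matches and no CHR match in these bases. Mcm6 held 2 CCAAT matches and 3 E2F matches, of which a pair overlapped. The Acta2 window held none of the motifs. Among the 44 G2/M genes with a window, 20 (45.5%) held a CHR match, against 14.2% of the 5459 measured genes and 19.6% of all 27025 genes with a window. CHR and CCAAT occurred together in 17 of the 44 (38.6%), against 5.44% of measured genes and 7.001% of all. Among the 31 S-phase genes with a window, 9 (29.03%) held an E2F match, against 4.34% of measured genes and 2.16% of all. A CCAAT match stood in 33 of 44 G2/M genes (75%) and 22 of 31 S-phase genes (71.0%), against 40.3% of measured genes and 37.5% of all. Of the marker genes of the mammary lineages, 1 of 12 basal and 1 of 14 luminal windows held a CHR match, and none held an E2F match. These are matches of letters, not shown binding sites.

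The library held 54173813 UMIs. Each other library shared between 0 and 57 cell barcodes with the 2496 cycling cells, and the E18.5 skin library, processed alongside, shared 36. Terminal end buds and ducts shared 6 each, and postnatal day 5, pre-puberty and adult C57BL/6 shared 0 each. The cause of this split was not tested. No doublet caller was run. The limits listed for this library in the study's supplement, which also cap genes and UMIs per cell, kept 6399 of the 6969 barcodes when applied here. Above 5000 genes or 30000 UMIs lay 12 cycling cells.

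Cycling cells made up 50.6% of the epithelial cells (95% exact interval 49.2 to 52.0%). Here and below, intervals cover counting error only. Since both groups of cells came from 1 library and cells are not replicates, no test was made and no p-value is given. Pclaf carried most of the rule: 97.4% of cycling cells held it, 74.8% held Top2a, 55.5% Cenpf and 53.2% Mki67. All 4 genes were seen in 728 cycling cells (29.2%), 3 of them in 840 (33.7%), 2 in 653 (26.2%) and only 1 in 275 (11.02%). Of these last, 259 held Pclaf alone. The median cycling cell had 9 UMIs of the 4 genes, with a range of 3 to 53.

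The rule counted molecules, and cycling cells were also the deeper ones. Their median was 11227.5 UMIs and 2865.5 genes, against 5106 UMIs and 1678 genes in cells with none of the 4 genes and 6850 UMIs in cells with 1 or 2. The median mitochondrial share of UMIs was 2.37% in cycling cells and 2.70% in cells with none. The tails differed more, with a 95th percentile of that share of 3.86% in cycling cells and 11.4% in cells with none. The 5th percentile of depth was 4072 and 1342 UMIs. More RNA per dividing cell and a better chance of reaching 3 UMIs in a deeper cell cannot be told apart here. When each cell was thinned to 4000 UMIs and the whole rule applied to the thinned counts, 1266 of 3680 epithelial cells were cycling, 34.4% (32.9 to 36.0%). At the edge of the rule, the 367 cells with exactly 3 UMIs and the 533 with exactly 2 lay closer together than the full groups. Cdk1 stood at 27.5 CPM (UMIs of the gene per 1000000 UMIs of the group) with 3 UMIs and at 20.5 with 2. Pcna stood at 54.4 and 49.6 CPM, Krt14 at 630 and 745, Krt5 at 89.3 and 112, Acta2 at 307 and 364, Krt8 at 730 and 803, and Cdkn1c at 515 and 514, and their median depths were 8392 and 7600 UMIs.

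**Figure D1:**
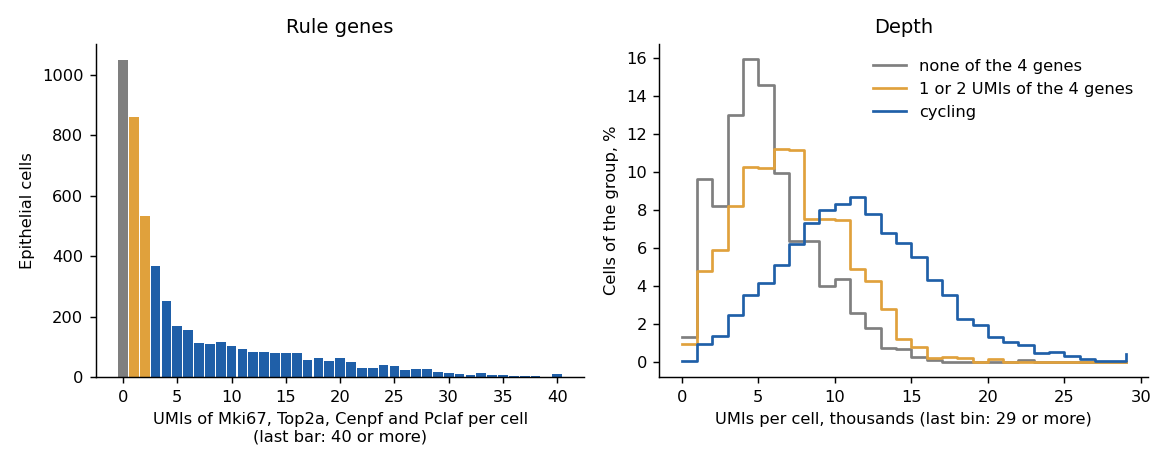
Left, epithelial cells of the E18.5 mammary library by their UMIs of the 4 rule genes (grey 0, orange 1 or 2, blue 3 or more). Right, share of each group's cells by UMIs per cell. The blue cells lie to the right of the grey ones, with medians of 11227.5 and 5106 UMIs.

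As the rule implies, the other cycle genes were higher in cycling cells, and they are given as a description. CPM were computed from UMIs summed over each group, and a gene was measured when the mean of its CPM in the 2 groups was 10 or more. Of 6872 measured genes, 9.82% were 1.5-fold or more higher in cycling cells and 5.78% were lower by as much. Among the measured cycle genes outside the rule, 31 of 33 S-phase genes, 37 of 38 G2/M genes and 126 of 152 other cycle genes were higher and none was lower, with median log2 ratios of 1.26, 2.05 and 1.16 against 0.07 over all measured genes. Genes that reached the minimum only through their level in cycling cells had to differ, and 5 of the 31, 14 of the 37 and 51 of the 126 were under 10 CPM in cells with none. Among genes at 10 CPM or more in both groups, 26 of 28, 23 of 24 and 75 of 99 were higher. Kif4, a chromosome motor, stood at 21.4 CPM in cycling cells and 1.52 in cells with none, and Aurkb, a mitotic kinase, at 43.5 and 4.39. Rrm2, a subunit of the enzyme that makes deoxynucleotides, stood at 82.1 and 16.4 CPM. The replication-linked histone gene Hist1h2ap was at 568 against 47.8 CPM, while the replication-independent H3f3a was at 1193 against 1239. The cycle lists together took 3.86% of UMIs in cycling cells and 2.11% in cells with none.

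Cycling cells varied in which cycle genes they carried. In the 2374 cycling cells with at least 4000 UMIs, each thinned to 4000, the S-phase list had a median of 8 UMIs per cell (5th to 95th percentile 2 to 19) and the G2/M list 19 (6 to 39). The 712 cells with none of the 4 genes that reached this depth had medians of 3 and 7. The S-phase and G2/M sums were close to unrelated across the cycling cells (Pearson r -0.07, Spearman rho -0.03 over cells of 1 library, a description). The G2/M list outnumbered the S-phase list in 1910 cells (80.5%) and the reverse held in 379 (15.97%), while 252 cells lay within 1 UMI of equal. The lists differ in size and level, so this split ranks cells and does not assign phases.

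**Figure D2:**
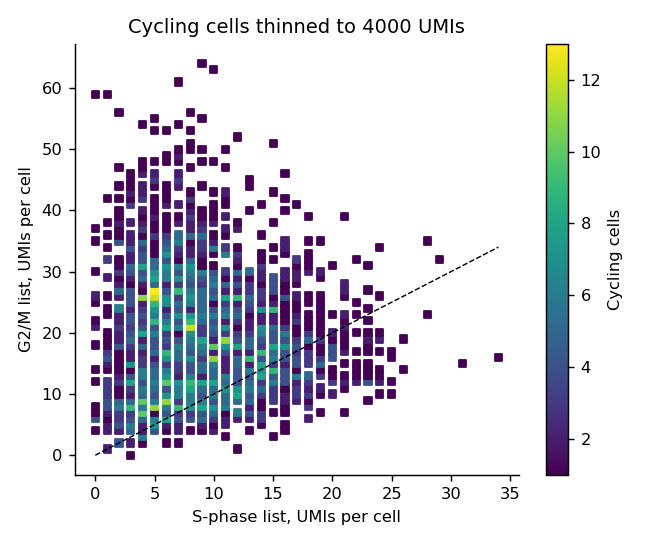
Cycling cells thinned to 4000 UMIs by their UMIs of the S-phase list (x axis) and the G2/M list (y axis), coloured by the number of cells at each point, with a dashed line where both are equal. Most cells, 1910 of 2374, lie above the line.

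Between the cells leaning to S phase and those leaning to G2/M, Pcna stood at 131 and 67.7 CPM and Ube2c, an enzyme of mitotic exit, at 56.1 and 268. The genes that set these sums are in the lists, so those values only describe the split. Outside the lists, Krt14, Krt17, Krt8 and Krt18 had ratios between 0.958 and 1.07 of G2/M-leaning over S-leaning cells, and Krt5 was higher in the G2/M-leaning ones, at 65.3 and 90.8 CPM (1.39, 1.13 to 1.73) against 126 in cells with none. Krt14 was at 592 CPM in S-leaning and 567 in G2/M-leaning cells (ratio 0.958, 0.891 to 1.03), against 1225 in cells with none. Krt8 was at 655 and 653 CPM (ratio 0.998, 0.932 to 1.07) against 1002. Acta2 was at 111 and 161 CPM (ratio 1.46, 1.24 to 1.72) against 444. Ly6d was at 266 and 336 (ratio 1.26, 1.14 to 1.41) against 835. Krt5, Krt14, Krt8, Acta2 and Ly6d were thus lower in both kinds of cycling cell than in cells with none with all depths pooled. Within bins of depth, given below, the lower level of Krt5, Krt8 and Ly6d in cycling cells was not found in each bin.

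Outside the cycle lists, 6630 genes were measured. Of these, 471 (7.1%) were 1.5-fold or more higher in cycling cells and 396 (5.97%) were lower by as much, and the median log2 ratio was 0.05. The lower genes included Tagln, Acta2, Actg2 and Myl9, 4 genes of the smooth muscle contractile apparatus that later mark myoepithelium. They were not fixed as a list and are described gene by gene. Tagln (transgelin, an actin-binding protein) had the lowest ratio of all genes with a mean of 30 CPM or more whose ratio held after thinning. It stood at 26.9 CPM in cycling cells and 95.2 in cells with none, a ratio of 0.282 (0.253 to 0.315). Acta2 stood at 162 and 507 CPM (ratio 0.320, 0.305 to 0.335), Actg2, smooth muscle gamma actin, at 41.9 and 116 (0.362, 0.329 to 0.398), and Myl9, a myosin light chain, at 66.1 and 165 (0.401, 0.371 to 0.433). Calponin, Cnn1, was at 10.9 and 27.4 CPM.

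Others among the 12 lowest were secreted, surface and stress genes. Wfdc18, a small secreted protease-inhibitor-like protein, stood at 156 CPM in cycling cells and 552 in cells with none (ratio 0.283, 0.271 to 0.297). Ly6d, a surface protein, stood at 256 and 732 CPM (0.349), and Plet1, another surface protein, at 201 and 497 (0.405). Krt17, a keratin of basal and appendage epithelium, stood at 208 and 527 CPM (0.394). Anxa1, a membrane-binding annexin, stood at 39.97 and 125 CPM (0.320), Nupr1, a stress-induced nuclear protein, at 26.9 and 79.6 (0.338) and the interferon-inducible Ifi202b at 15.9 and 53.2 (0.299).

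These genes behaved differently with depth. Within cells of 5000 to 10000 UMIs (769 cycling, median 7975; 433 with none, median 6562), all 12 stayed lower by 1.5-fold or more, from 0.227 for Tagln to 0.657 for Ly6d. Within cells of 10000 to 15000 UMIs (944 cycling, 107 with none), 5 of the 12 did: Tagln, Acta2, Actg2, Myl9 and Ifi202b. The contractile genes were furthest apart there, with Acta2 at a ratio of 0.176 and Myl9 at 0.208. Ly6d turned to a ratio of 2.02 (1.69 to 2.43) in these deep cells, Anxa1 stood at 1.26 and Nupr1 at 1.10. Krt17 at 0.678 (0.606 to 0.762), Wfdc18 at 0.710 (0.619 to 0.818) and Plet1 at 0.865 (0.765 to 0.981) remained lower there by less than 1.5-fold. The 4 contractile genes thus stayed past 1.5-fold in each of the 3 bins, with Acta2 at 0.419 and Myl9 at 0.528 in cells of 1000 to 5000 UMIs.

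**Figure D3:**
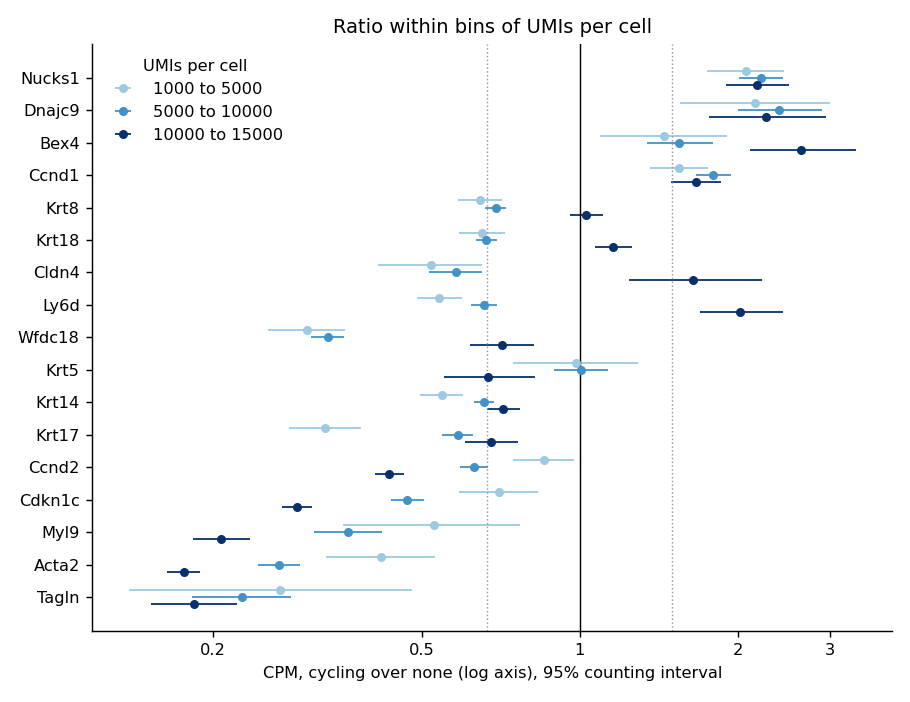
Ratio of CPM in cycling cells over cells with none of the 4 genes, on a log axis, within 3 bins of UMIs per cell, with 95% counting intervals; dotted lines mark 1.5-fold. Tagln, Acta2, Myl9 and Cdkn1c lie left of 1 in each bin, Nucks1, Dnajc9 and Ccnd1 right of it, and Ly6d and Cldn4 cross from left to right in the deepest bin.

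Basal identity was described with 20 genes, of which 17 were measured. None was higher by 1.5-fold and 10 were lower, against 7.1% higher and 5.97% lower over genes outside the cycle lists, and the median log2 ratio was -0.93. Of the lower genes, Acta2, Tagln, Myl9, Cnn1 and Krt17 are given above, so the count is not separate from them. The median was the ratio of Sparc. Within the fold lay 7 genes, among them Pdpn, Vim and Snai2 with ratios of 1.11, 0.863 and 0.690. In cells of 5000 to 10000 UMIs the median was -0.57. The basal keratin Krt14 stood at 513 CPM in cycling cells and 1095 in cells with none (ratio 0.468, 0.455 to 0.482). Its partner Krt5 stood at 77.3 and 121 CPM (0.639), and Krt15 at 84.5 and 120 (0.706). Trp63, the transcription factor that maintains basal epithelium, was at 11.2 and 14.5 CPM (0.771, 0.606 to 0.989), and Lgr5, the gene of the reporter allele, at 34.1 and 39.9 (0.855). Krt5 had ratios of 0.985, 1.01 and 0.670 in cells of 1000 to 5000, 5000 to 10000 and 10000 to 15000 UMIs, so its lower pooled level did not hold in the shallower bins. Krt14 had 0.546, 0.657 and 0.715 in the same bins. Krt15 had 0.872, 1.01 and 0.954, each with an interval that included 1, so its lower pooled level was not found within the bins. Sparc, also on the list, stood at 273 and 521 CPM but at 7074 in 330 cells of the library with no Epcam UMI and 20 or more collagen UMIs, called collagen-high cells here.

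Of 16 luminal genes 13 were measured, none was higher and 6 were lower by 1.5-fold, against the same 7.1% and 5.97%, with a median log2 ratio of -0.56. Summed over the list, cycling cells stood at 2634 CPM and cells with none at 3846, but in cells of 10000 to 15000 UMIs the sums were 2684 and 2408. Krt8 stood at 644 CPM in cycling cells and 948 in cells with none (ratio 0.679, 0.659 to 0.700), its partner Krt18 at 587 and 905 (0.648), and the tight junction gene Cldn4 at 74.1 and 169 (0.437). The epidermal growth factor family ligand Areg stood at 63.1 and 118 CPM (0.534), with ratios of 0.783, 0.664 and 0.774 over the 3 bins of depth. In cells of 10000 to 15000 UMIs, Krt8 was at a ratio of 1.03, Krt18 at 1.16 and Cldn4 at 1.65, so that none of these 3 was lower in cycling cells of that depth. Elf3, a luminal transcription factor, was at 26.4 and 20.3 CPM (1.30).

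Genes of luminal progenitors and of mature luminal cells gave no common direction. Of 8 measured progenitor genes, Hey1, a Notch target, was higher at 38.6 against 19.9 CPM (1.94, 1.60 to 2.36), Tspan8 (0.442) and Mfge8 (0.568) were lower, beside a background of 7.1% higher and 5.97% lower, and the median log2 ratio was 0.01. Over the 3 bins of depth Hey1 had ratios of 2.04, 1.43 and 1.81, Mfge8 0.727, 0.499 and 0.374, and Tspan8 0.555, 0.756 and 0.923, so that Tspan8 passed the fold in the shallowest bin alone. Aldh1a3, which makes retinoic acid, was at 91.0 and 65.7 CPM (1.38) and Elf5 at 13.9 and 11.5 (1.21). Only 3 of 14 mature luminal genes were measured, of which Ly6a was lower by 1.5-fold at 10.4 and 18.3 CPM (0.570) and none was higher. Gata3, the luminal lineage factor, was at 65.4 and 64.1 CPM (1.02, 0.914 to 1.14). The hormone receptor genes Esr1 and Pgr were under 10 CPM in both groups, at 4.72 and 4.73 CPM for Esr1 and 5.96 and 7.61 for Pgr.

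Of 24 genes tied to the rudiment, 15 were measured, 3 were higher and none lower (background 7.1 and 5.97%), with a median log2 ratio of 0.01. Some of this list, the Bex genes among them, was chosen by the study on these samples, so it is not independent evidence of a direction. The 3 were members of the Bex family of small adaptor proteins. Bex4 stood at 159 CPM in cycling cells and 80.1 in cells with none (1.98, 1.80 to 2.18), Bex1 at 213 and 127 (1.68) and Bex2 at 93.6 and 56.3 (1.66). Over the 3 bins of depth Bex4 had ratios of 1.45, 1.55 and 2.65 and Bex1 1.26, 1.47 and 2.07. The parathyroid-hormone-like ligand Pthlh, which instructs the mammary mesenchyme, was at 74.4 and 58.3 CPM (1.28). Igfbp2 and Serpine2 had ratios of 0.987 and 1.01.

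The balance of keratins differed between the groups when depth was pooled and in 2 of the 3 bins of depth. Basal keratins (Krt5, Krt14, Krt15 and Krt17) made 41.1% of the UMIs of these and 4 luminal keratins (Krt7, Krt8, Krt18 and Krt19) in cycling cells (40.7 to 41.5%) and 49.4% in cells with none (48.7 to 50.01%), a difference of -8.23 percentage points. In cells of 5000 to 10000 UMIs the shares were 49.3 and 48.6%, with overlapping intervals. In cells of 10000 to 15000 UMIs they were 38.5% (37.9 to 39.1%) and 48.9% (47.1 to 50.8%), and in cells of 1000 to 5000 they were 45.2% (43.02 to 47.5%) and 51.0% (49.9 to 52.2%). After thinning to 4000 UMIs, 86.4% of cycling cells held at least 1 UMI of both keratin classes and 91.4% of cells with none did. The same share was 53.9% in 141 collagen-high cells thinned to the same depth, so holding UMIs of both classes does not by itself show that a cell made both.

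The reverse question is how many cells cycled at each keratin balance. At 4000 UMIs per cell, with the rule applied to the thinned counts, 3170 cells had 5 or more keratin UMIs and were ranked in 4 groups by their basal keratin share. From the lowest to the highest share, 35.4% (32.0 to 38.9%), 34.9%, 30.8% and 29.98% (26.9 to 33.2%) were cycling. The lowest and the highest group differed by -5.44 points and their intervals overlapped, and 426 cells lay within 2 points of a dividing value. Ranked instead by Krt5, Krt14, Krt17 and Cxcl14 against Bex1, Bex4, Lcn2, Spint2 and Espn, 38.6% (35.1 to 42.1%) cycled in the lowest group and 24.5% (21.7 to 27.5%) in the highest, and those intervals did not overlap. Some of the genes of that ranking differ between cycling cells and cells with none, as given above. Cycling cells were present over the whole range of both rankings.

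Regulators of cell cycle entry differed by family member. Ccnd1, the D-type cyclin that links growth signals to Cdk4 and Cdk6, stood at 486 CPM in cycling cells and 308 in cells with none (1.58, 1.501 to 1.66). Ccnd2 went the other way, at 397 and 645 CPM (0.616, 0.594 to 0.639), and Ccnd3 was at 79.7 and 75.5 (1.06). Cdk4 was at 510 and 404 CPM (1.26) and Cdk6 at 77.2 and 61.2 (1.26). Over the 3 bins of depth Ccnd1 had ratios of 1.55, 1.80 and 1.66 and Ccnd2 0.854, 0.630 and 0.434.

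Of 14 measured inhibitors and arrest genes, 1 was higher and 2 were lower by 1.5-fold, with a median log2 ratio of -0.11, beside a background of 7.1% higher and 5.97% lower. Cdkn1c, an imprinted inhibitor of cyclin-dependent kinases, stood at 303 CPM in cycling cells and 572 in cells with none (0.530, 0.510 to 0.552), and its ratio was 0.702, 0.470 and 0.289 over the 3 bins of depth. The other lower gene was Gadd45b, at 78.8 and 123 CPM (0.643), and the higher one was Gas1 at 37.9 and 25.2 (1.504), with ratios of 1.26, 1.34 and 1.17 over the 3 bins, each within the fold. Cdkn1a, a target of p53, was at 167 and 239 CPM (0.701), and Cdkn1b at 14.8 and 13.9 (1.07). Cdkn2a had 12 UMIs in all cycling cells and 1 in cells with none. H19, an imprinted long RNA, was not on the list and is named after its value was seen. It stood at 266 and 614 CPM (0.433), and its ratio was 0.435, 0.614 and 0.714 over the 3 bins of depth.

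**Figure D4:**
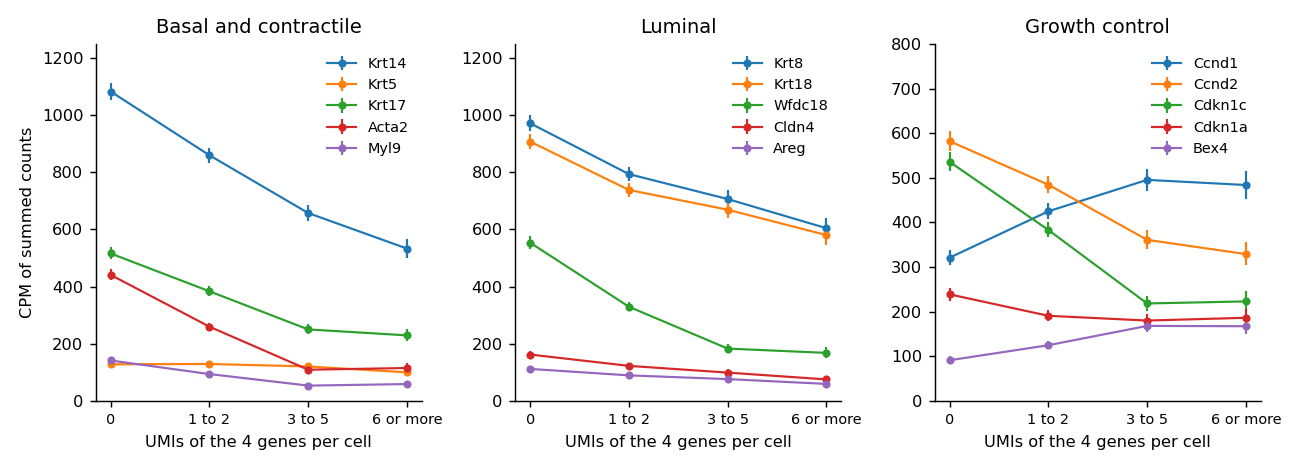
CPM (y axis, summed counts with 95% counting intervals) in epithelial cells thinned to 4000 UMIs, by UMIs of the 4 rule genes in the thinned cell (x axis), for basal and contractile, luminal and growth control genes. Over the 4 classes Acta2 stands at 441, 259, 109 and 115 CPM and Krt14 at 1083, 860, 658 and 533 CPM.

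Thinning each cell to 4000 UMIs made the counts equal but did not match cells by their depth before thinning. The classes were 1152 cells with no UMI of the 4 genes, 1262 with 1 or 2, 790 with 3 to 5 and 476 with 6 or more. They gave graded levels of several genes. Cdkn1c was at 536, 383, 218 and 223 CPM in that order, and Tagln at 81.2, 48.3, 23.7 and 16.3. Bex4 went the other way, at 90.7, 124, 168 and 167 CPM, and Ccnd1 at 321, 425, 495 and 484. Krt5 was at 128, 129, 120 and 99.3 CPM, and Trp63 at 15.4, 14.9, 13.9 and 12.6. Krt15 was at 125, 136, 133 and 132. Cdkn1c and Bex4 thus differed little between the last 2 classes, and Krt15 differed little over all of them.

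The 12 genes with the highest ratios outside the cycle lists were taken by the same criteria and have varied roles, some tied to the cycle. Of the 10 with a promoter window, 4 (40%) held an E2F match, against 4.34% of measured genes. A CCAAT match stood in 6 and a CHR match in 2, against 40.3% and 14.2% of measured genes. Hspa14, a chaperone of the ribosome, had the highest ratio, with 43.3 CPM in cycling cells and 17.6 in cells with none (2.46, 2.01 to 3.04). Dnajc9, a histone chaperone, stood at 115 and 48.0 CPM (2.39), Pmf1, a kinetochore subunit, at 105 and 45.6 (2.29), the chromatin protein Nucks1 at 393 and 176 (2.23) and Tfdp1, a partner of E2F factors, at 62.1 and 29.1 (2.14). Lsm2 and Ppil1, of the splicing machinery, had ratios of 2.06 and 2.06. Mrpl18 of the mitochondrial ribosome had 2.08, Cmc2 2.05, Tomm40, the pore of the mitochondrial outer membrane, 2.03, Cse1l, a nuclear export factor, 2.03, and AC160336.1, known here by its identifier alone, 2.18. In cells of 5000 to 10000 UMIs all 12 were higher by 1.5-fold, from 1.76 to 2.40, as were 10 of them in the shallower bin and 11 in the deeper one.

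Biosynthetic lists differed in how many members passed 1.5-fold. Of 23 measured genes of nucleotide synthesis, 12 were higher and none lower (median log2 ratio 0.68), against 7.1% higher over genes outside the cycle lists. Of these 12, 3 were under 10 CPM in cells with none and had to differ to be measured, Cad among them, and 9 of the 19 at 10 CPM or more in both groups were higher. Cad, which starts pyrimidine synthesis, stood at 17.6 and 5.92 CPM (2.97), Shmt1, of the folate cycle, at 29.2 and 11.3 (2.58) and Ctps, which makes CTP, at 35.3 and 16.7 (2.11). Of 22 measured genes of ribosome biogenesis and growth, 8 were higher and none lower (median 0.54), among them Dkc1, which modifies ribosomal RNA, at 58.0 and 34.1 CPM (1.70). Myc was at 17.3 and 20.6 CPM. The list medians were 0.19 for oxidative phosphorylation, where 1 of 33 genes, Cycs, was higher, 0.15 for glycolysis (0 of 13) and -0.04 for ribosomal proteins (0 of 80).

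Of 16 measured genes of the basement membrane and its receptors, 6 were lower by 1.5-fold, 10 lay within it and none was higher (median log2 ratio -0.49, background 5.97% lower). The lower ones included the hemidesmosome genes Col17a1 at 18.5 and 32.6 CPM (0.57) and Itgb4 at 20.7 and 31.8 (0.65). A gene under 10 CPM in cycling cells had to differ to be measured, and among the 15 at 10 CPM or more in both groups 5 were lower. Of 17 measured junction genes, 6 were lower, 11 lay within the fold and none was higher (median -0.53). Among the 16 at 10 CPM or more in both groups, 5 were lower. Cdh1, E-cadherin, was at 61.6 and 97.7 CPM (0.63) and Cldn6, a tight junction gene of embryonic epithelium, at 90.0 and 165 (0.54). Epcam, at 912 and 1370 CPM, was part of the rule, so a count that holds it is not free of that choice. Its ratio was 0.759, 0.775 and 0.954 over the 3 bins of depth, each within the fold. Among pathway lists, 1 of 7 WNT genes (Fzd7, under 10 CPM in cells with none) and 1 of 8 Notch genes (Hes6) were higher and none lower, single calls beside a background of 7.1%. Of 15 growth factor genes 3 were lower, with Hbegf at 83.3 and 150 CPM, and of 15 TGF-beta and BMP genes 1, the antagonist Fst at 139 and 238, beside a background of 5.97%. Among 16 epithelial transcription factors, Klf5 at 307 and 482 CPM (0.64) and Ovol1 at 39.9 and 64.1 (0.62) were lower, and Tfap2c, of early mammary identity, was at 64.1 and 46.7 (1.37). Apart from Epcam, the genes named in this paragraph were compared with all depths pooled and not within bins of depth. The tight junction gene Cldn4, given above, went from a pooled ratio of 0.437 to 1.65 in cells of 10000 to 15000 UMIs. Whether the lower levels here hold at matched depth was not tested.

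Markers of other cells were present at levels that differed by list. The 12 fibroblast genes summed to 467 CPM in cycling cells, 750 in cells with none and 21626 in collagen-high cells, and 6 of the 8 measured were lower in cycling cells (background 5.97%). Among the 7 at 10 CPM or more in both groups, 5 were lower. The 10 suprabasal epidermis genes summed to 989 and 1594 CPM, most of it Lgals7 at 828 and 1404. Krt1, Krt10 and Krtdap of this list were limited by the rule for epithelial cells. Melanocyte and Schwann genes summed to 21.3 and 74.9 CPM, and 5 of the 1049 cells with none held 379 of that group's 443 UMIs. Immune genes summed to 4.07 and 7.44 CPM, erythroid genes to 2.62 and 3.04, and the 7 endothelial genes to 14.1 and 11.2 (ratio 1.26, 0.972 to 1.66), with Cdh5 and Emcn at 0 in cycling cells. The part of these cells' RNA in the lineage results was not tested. Cells with 3 or more fibroblast UMIs were 45.8% of the deeper cycling cells and 17.4% of cells with none. Leaving out each cell with 3 or more UMIs of the fibroblast, endothelial, immune, erythroid, melanocyte and Schwann genes removed 54.0% of cycling cells and 21.5% of cells with none and kept the 12 higher and the 12 lower genes named past 1.5-fold, and the basal and luminal medians were then -0.78 and -0.48.

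Under the same rule, the share of cycling cells in the other C57BL/6 libraries was 44.8% in terminal end buds (42.5 to 47.1%, 828 cells), 38.8% in E18.5 skin (31.7 to 46.3%, 71 cells), 30.8% at postnatal day 5 (28.7 to 33.1%, 541 cells), 19.8% in ducts (17.7 to 22.0%, 271 cells), 4.89% before puberty (3.72 to 6.30%, 56 cells) and 1.25% in the adult (1.04 to 1.49%, 126 cells). The median epithelial cell held 8537 UMIs at E18.5 and 21964 in terminal end buds. At 4000 UMIs per cell the E18.5 rudiment stood at 34.4%, E18.5 skin at 24.4% (17.0 to 33.1%), terminal end buds at 21.5% (19.3 to 23.8%) and postnatal day 5 at 21.1% (19.003 to 23.3%). The interval of E18.5 skin overlapped that of the rudiment, if narrowly, and those of terminal end buds and postnatal day 5 did not. With 1 library per stage, a difference between stages and one between libraries cannot be told apart.

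**Figure D5:**
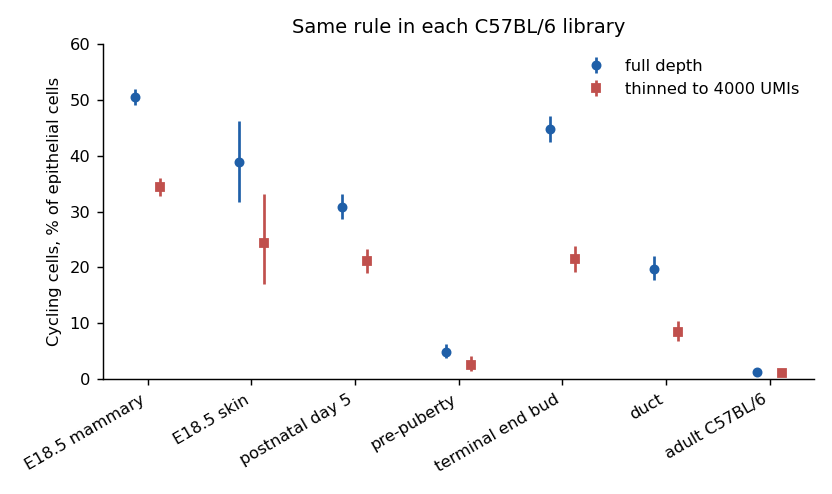
Cycling cells as a percentage of epithelial cells in each C57BL/6 library under the same rule, at full depth (circles) and with each cell thinned to 4000 UMIs (squares), with 95% exact intervals. The E18.5 rudiment is highest at both depths, at 50.6 and 34.4%, and the adult lowest, at 1.25 and 1.14%.

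The 12 genes higher in cycling cells of the rudiment were higher by 1.5-fold or more in each of E18.5 skin, postnatal day 5, terminal end buds and ducts, and 11 of 12 were so before puberty and in the adult. Of all genes outside the cycle lists, 20.4% were higher in E18.5 skin, 12.5% at postnatal day 5, 11% before puberty, 11.8% in terminal end buds, 14.8% in ducts and 18% in the adult. The lower genes were less shared. At postnatal day 5, 8 of 11 measured were lower by 1.5-fold (background 12.7%), in E18.5 skin 11 of 12 (16.7%), in terminal end buds 6 of 10 (11.6%), in ducts 5 of 10 (8.36%) and before puberty 1 of 10 (9.7%). The other way, 4 of 10 were higher before puberty, 2 of 10 in terminal end buds, 1 of 11 at postnatal day 5 and none in ducts or E18.5 skin. In the adult 3 of 10 were lower (13.2%) and 6 of 10 were higher (18%). Acta2, Actg2, Myl9 and Tagln were among those 6. Acta2 stood at 1202 CPM in cycling cells and 3885 in cells with none at postnatal day 5, a ratio of 0.309 close to the 0.320 of the rudiment, and at 2340 and 1171 CPM in the adult, a ratio of 1.998. Krt18 was lower in the pooled cycling cells of each library, with ratios from 0.225 in E18.5 skin to 0.744 before puberty. Its partner Krt8 ranged from 0.228 in E18.5 skin to 0.701 in ducts but stood at 1.08 (1.03 to 1.12) before puberty. The E18.5 skin ratios rest on 71 cycling cells and 61 with none. Those 61 cells stood at 1992 CPM of Wfdc18 and 1789 of Krt18, against 552 and 905 in rudiment cells with none. The 71 cycling cells stood at 34.4 CPM of Lef1 and 33.2 of Edar, against 2.28 of each in the 61. The part of a difference in cell type in the E18.5 skin ratios was not tested. Ccnd2, lower in cycling cells of the rudiment, had ratios of 2.31 at postnatal day 5, 3.53 in terminal end buds, 2.47 in ducts and 3.06 in the adult, and 0.984 (0.841 to 1.15) in E18.5 skin and 1.15 (0.808 to 1.603) before puberty. Bex4 was at 2.10 in terminal end buds, 2.17 in ducts, 3.43 in the adult, 1.43 before puberty, 1.13 in E18.5 skin and 0.961 at postnatal day 5. In these libraries the basal keratin share of keratin UMIs in cycling cells and in cells with none was 73.9 and 36.1% in E18.5 skin, 70.1 and 41.6% at postnatal day 5, 26.9 and 14.5% before puberty, 4.12 and 2.32% in terminal end buds, 21.4 and 13.5% in ducts and 23.9 and 5.99% in the adult. The part of this balance in the differences between libraries was not tested. The study took some clusters of its postnatal day 5 cells as contaminating skin or stroma, and no clusters were removed here. At postnatal day 5 Msx1 stood at 52.3 CPM in cycling cells and 1.74 in cells with none, and Lef1 at 48.0 and 8.60. In the rudiment Msx1 stood at 0.896 and 0.676 CPM and Lef1 at 1.59 and 2.20. The part of skin cells in the postnatal day 5 ratios and keratin shares was not tested.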

How the data were processed

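Single-cell RNA of mouse mammary epithelium was analysed from the deposited counts. The authors made the UMI counts per gene and barcode with Cell Ranger (3.0.2 per the file header, 3.1.0 per the labels, build mm10 per the labels) and exported barcodes with 500 or more reads. The cells, gene lists and comparisons were chosen with earlier results of these data known. Counts were summed over the cells of each group and scaled to CPM (per 1000000 UMIs). Ratios carry exact conditional Poisson intervals and shares exact Clopper-Pearson intervals, both at 95%, for counting error only. PCR duplicates were already collapsed by UMI. A gene was measured at a mean CPM of 10 or more, and past the fold at 1.5. Named outside the cycle lists were the 12 highest and 12 lowest ratios among genes with a mean CPM of 30 or more that were also past 1.5-fold after thinning. The values of 1 of the lower genes are not reported here. The rule excludes the rule genes and the S-phase, G2/M, other cycle and histone lists, 390 genes in all. Genes of each list are given by counts, medians and examples. For thinning, UMIs were drawn without replacement to 4000 per cell. This left out 122 of 2496 cycling cells and 337 of 1049 cells with none. The ratio method was run on simulated Poisson counts. These held no spread between cells, so the run cannot show how the intervals behave with such spread. No clustering or doublet removal was done. Python 3.11.15, numpy 2.4.6, scipy 1.17.1 and pandas 2.3.3 were used. Promoter windows came from RefSeq (GRCm38.p6). 10 of the 12 higher and 7 of the 12 lower named genes had one. The 11 libraries of other strains and stages were not used beyond their barcodes.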

Additional observations from a re-analysis of the deposited data

Results flagged for a closer look

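Several genes lower in cycling cells of the rudiment were higher by 1.5-fold or more, with the whole counting interval past that fold, in at least 1 other C57BL/6 library. Each library has no replicate and the difference between libraries was not tested. Acta2 had a ratio of cycling cells over cells with none of 0.320 in the rudiment, 1.85 before puberty, 1.75 in terminal end buds and 1.998 in the adult. Actg2 had 0.362 in the rudiment, 2.60 before puberty and 4.07 in the adult. Krt17 had 0.394 in the rudiment, 1.99 at postnatal day 5, 2.69 before puberty and 3.42 in the adult. Myl9 had 0.401 in the rudiment, 1.70 in terminal end buds and 2.23 in the adult. Tagln had 0.282 in the rudiment and 1.60 in the adult. The pre-puberty and adult values rest on 56 and 126 cycling cells. The part of skin cells in the postnatal day 5 value of Krt17 was not tested.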

How the results depend on the processing

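The lower basal and luminal medians kept their sign under each of the 12 alternatives, and the keratin balance did not. The depth range of 10000 to 15000 UMIs was not among these alternatives. There the luminal list summed to 2684 CPM in cycling cells and 2408 in cells with none, and the basal list to 2002 and 4038. No other list was summed within bins of depth. The cycling share was 38.0% at a threshold of 5 UMIs, 48.2% at 1 Epcam UMI, 39.0% without cells holding 3 or more stromal UMIs, 34.4% with the rule applied after thinning and 35.3% without cells holding a Krt1, Krt10 or Krtdap UMI. The last setting and the depth range of 5000 to 10000 UMIs were chosen after seeing the data. Outside the cycle lists, 109 genes were higher and 134 lower at a mean CPM of 50, where fewer genes were measured, and 1701 and 2963 with no minimum. The keratin difference was -7.30 points after thinning, -3.79 with the rule after thinning, -5.51 with cells weighted equally, -6.51 without the epidermal UMIs and 0.62 in cells of 5000 to 10000 UMIs, where its sign turned; the cause was not tested. The basal median was -1.05 at a threshold of 5 UMIs, -1.09 at 1 Epcam UMI, -0.78 without stromal cells, -0.87 thinned, -0.81 with the rule after thinning, -0.91 scaled outside the cycle lists, -0.81 with cells weighted equally, -1.01 at a mean CPM of 50, -1.01 with no minimum, -0.57 in cells of 5000 to 10000 UMIs and -1.01 without epidermal UMIs. The luminal median under the same settings in that order was -0.60, -0.48, -0.48, -0.61, -0.43, -0.53, -0.64, -0.59, -0.59, -0.47 and -0.53. Ranked by basal against rudiment genes instead of basal against luminal keratins, the highest group cycled less than the lowest, a difference of -14.0 points. Some genes of that ranking differ between cycling cells and cells with none, so this difference is not separate from their ratios. No paired analysis was possible because both groups of cells came from 1 library. Depth limits genes under 10 CPM, and only 5 cells with none of the 4 genes held 15000 to 25000 UMIs.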

Other observations

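Cells that the rule set aside also held the 4 genes. Of 307 cells with 2 or more Epcam UMIs and 10 or more UMIs of Krt1, Krt10 and Krtdap, 157 held 3 or more UMIs of the 4 genes, and of 1246 cells with fewer than 2 Epcam UMIs, 311 did. In the 330 collagen-high cells, Top2a stood at 169 CPM and Pclaf at 254, against 227 and 561 in cycling epithelial cells.

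Among histone genes, the polyadenylated variants H2afx and H2afz stood at 240 and 2537 CPM in cycling cells against 68.5 and 1185 in cells with none, while Hist1h2bc was lower, at 90.5 against 163. Of 23 immediate early and heat shock genes, 22 lay within 1.5-fold, among them Fos at 336 and 309 CPM, and Hspb1, a small heat shock protein, was lower at 472 against 909. UMIs of the mitochondrially encoded genes stood at 24293 and 29201 CPM (ratio 0.832, 0.828 to 0.836).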
